A study of Mus musculus with 50 samples.

Results

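Fat-containing tumors were compared with tumors that held almost no transcripts of the fat cell gene Adipoq. The 49 ranked mammary gland (MG) tumors were ordered by the level of Adipoq, which encodes the fat cell hormone adiponectin, and the members were chosen by this level: the 12 highest tumors (high tumors) were set against the 12 lowest (low tumors), whatever their treatment. The remaining 25 tumors lay between these groups. There were 50 tumors in all, and insulin tumor 13 was left out before ranking because its library stood apart from the others.

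All 50 tumors came from p53R270H/+WAPCre mice, females of 8 weeks at the start, in which Cre under the WAP promoter of mammary epithelium switches on a heterozygous mutant p53 allele. The mice were injected subcutaneously every other day with vehicle, insulin, glargine, X10 or IGF1, with 10 tumors per treatment, and tumors were taken at 1 cm3, 24 h after the last injection. X10 and glargine are insulin analogs with an altered amino acid sequence, while IGF1 denotes the growth factor related to insulin. The study had chosen EMT-like tumors, those with an epithelial to mesenchymal transition, near the median latency of their treatment. RNA was isolated from a piece of each tumor and sequenced in bulk, so that fewer fat cells and less RNA per fat cell cannot be told apart. Tumors are named as in the sample labels, where vehicle tumors are called Untreated.

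White fat cells (adipocytes) store triglyceride in a large lipid droplet coated by perilipins and CIDE proteins, and secrete hormones such as adiponectin, leptin and adipsin. The mammary gland grows inside a fat pad, so adipocytes border every mammary epithelial tree. Their gene program is driven by the nuclear receptor PPARG together with C/EBP factors, and insulin promotes their glucose uptake and fat storage.

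The bases before the start of 4 adipocyte genes are shown. Besides Adipoq, 8 tested adipocyte genes did not overlap between the high and low tumors. Of these 8 only Lep, Plin1 and Cidec were found to hold the letters marked below. For Cidec the listed start with the letters is shown. The sequences are from RefSeq (GRCm38.p6), 250 bases upstream of the annotated start, 5′ to 3′ on the strand of the gene. Capitals mark the letters TTGCNNAA, a pair of half-sites that C/EBP factors are known to bind, searched on both strands. The regions are chr16:23146286-23146535 (plus strand) for Adipoq, chr6:29059971-29060220 (plus strand) for Lep, chr7:79732777-79733026 (minus strand) for Plin1 and chr6:113434765-113435014 (minus strand) for a start of Cidec.
Adipoq: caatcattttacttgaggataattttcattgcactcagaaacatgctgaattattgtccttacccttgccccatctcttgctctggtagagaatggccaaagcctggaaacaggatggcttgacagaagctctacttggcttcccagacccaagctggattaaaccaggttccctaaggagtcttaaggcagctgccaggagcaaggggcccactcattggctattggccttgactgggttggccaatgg
Lep: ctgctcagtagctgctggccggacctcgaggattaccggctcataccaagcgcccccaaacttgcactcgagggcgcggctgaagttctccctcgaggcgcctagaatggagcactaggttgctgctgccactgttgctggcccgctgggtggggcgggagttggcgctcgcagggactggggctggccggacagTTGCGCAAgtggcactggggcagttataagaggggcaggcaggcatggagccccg
Plin1: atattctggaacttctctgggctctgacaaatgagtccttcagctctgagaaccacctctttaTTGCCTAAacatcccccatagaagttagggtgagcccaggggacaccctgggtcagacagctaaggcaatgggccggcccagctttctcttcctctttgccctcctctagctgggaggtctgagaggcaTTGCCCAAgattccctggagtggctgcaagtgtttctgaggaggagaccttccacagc
Cidec: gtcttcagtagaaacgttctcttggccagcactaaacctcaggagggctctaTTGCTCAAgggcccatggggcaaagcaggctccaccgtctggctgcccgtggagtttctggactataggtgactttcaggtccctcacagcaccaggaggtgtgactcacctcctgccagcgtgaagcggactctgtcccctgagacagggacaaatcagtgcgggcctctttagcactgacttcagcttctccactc

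The letters begin 55 bases before the start of Lep, 58 bases before that of Plin1, with a further match upstream, and 198 bases before that of Cidec, and they do not occur in the Adipoq window or before the other listed start of Cidec. Of the 32851 RefSeq promoters 9.56% hold them in these 250 bases, and of their 27025 genes 10.8% have such a promoter. Of the Adipoq gene and the 17 adipocyte genes called higher below, 15 were found in the table, and 5 of these hold the letters (Cidec, Lep, Plin1, Pparg and Rbp4). Of all 44 adipocyte genes with a promoter there, 6 hold them, or 13.6%. A direct repeat of AGGTCA with 1 base between, the form bound by PPARG with RXR, was in none of the 15 and in 0.0335% of all promoters. These matches describe letters only and were not tested against expression.

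Libraries held between 26.6 and 51.9 M reads (median 40.9 M), as recovered from the steps of the RPKM table, and this depth did not differ between high and low tumors beyond their spread (mean difference -0.40 M reads, two-sided permutation test with 100000 resamples, p = 0.884). Insulin_13 held transcripts of salivary gland, with 84726 RPKM of Bpifa2 and 16196 RPKM of Amy1, genes chosen after their values were seen. Among the 24 compared tumors such transcripts were raised in the low tumor insulin_14, with 428 RPKM of Bpifa2. X10_105, the tumor with the most Adipoq, also had the highest levels of B cell genes of all 50 tumors, with 84.5 RPKM of Cd79a, and of the basal keratin gene Krt5, with 1036 RPKM.

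Adipoq (chr16:23146536-23158028) was between 9.59 and 49.9 RPKM in the high tumors, with a median of 16.2 and a mean of 22.4 ± 13.2 (SD, n = 12). It was between 0.415 and 9.53 RPKM (median 1.73) in the 25 tumors between, and between 0.055 and 0.404 RPKM (median 0.208, n = 12) in the low tumors. These levels stood on 342 to 2232 reads per high tumor and on 2 to 14 reads per low tumor. Adipoq chose the groups, so its difference is a description. The levels formed a continuous series: the last tumor inside the high group, glargine_53, had 9.59 RPKM and the first outside it, X10_115, had 9.53 RPKM. At the lower boundary X10_111 had 0.404 RPKM and insulin_27 had 0.415 RPKM.

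**Figure D1:**
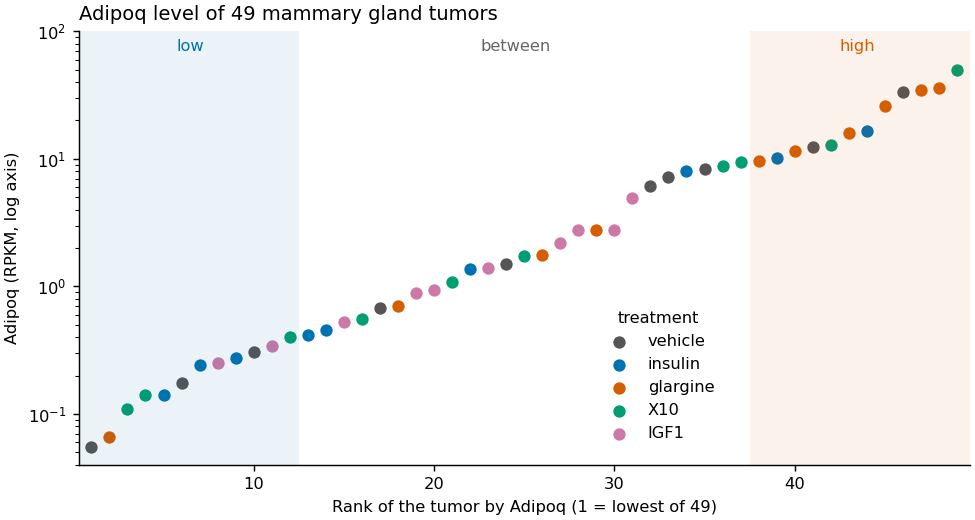
Adipoq level (RPKM, log axis) of the 49 ranked tumors in order of the level, with each point a tumor and its color the treatment. The shaded ends are the 12 low tumors, at 0.055 to 0.404 RPKM, and the 12 high tumors, at 9.59 to 49.9 RPKM, of which 6 are glargine tumors and none is an IGF1 tumor.

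The 12 high tumors came from 4 treatments and the 12 low tumors from 5. The high tumors were 6 glargine (glargine_47, glargine_53, glargine_64, glargine_67, glargine_70 and glargine_78), 2 insulin (insulin_15 and insulin_21), 2 vehicle (Untreated_189 and Untreated_195) and 2 X10 tumors (X10_105 and X10_113). The low tumors were 3 vehicle (Untreated_161, Untreated_174 and Untreated_197), 3 insulin (insulin_14, insulin_26 and insulin_37), 3 X10 (X10_95, X10_100 and X10_111), 2 IGF1 (IGF1_128 and IGF1_147) and 1 glargine tumor (glargine_63). This distribution over the high, middle and low tumors did not differ between treatments beyond shuffled labels (chi-square 11.8, permutation test with 100000 resamples, p = 0.164).

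The median Adipoq level was 10.5 RPKM in the glargine tumors, 3.82 in vehicle, 1.41 in X10, 1.17 in IGF1 and 0.656 in insulin tumors, with 10 tumors in each. The range within a treatment was wide, from 0.066 to 35.7 RPKM in glargine and from 0.109 to 49.9 RPKM in X10 tumors. Over the 5 treatments the levels did not differ beyond this spread (permutation test of the F statistic on log2(RPKM + 0.5), F = 1.70, p = 0.167). Glargine minus vehicle was 1.12 on the log2 scale (two-sided permutation test, p = 0.242, adjusted p = 0.496 over the 4 ligands), and the smallest adjusted p of the other ligands was also 0.496. Since 6 of the 12 high tumors were glargine tumors, the genes were also fitted with treatment as a term. Of the 53 called genes whose values are given, 17 were not called in that fit: Rbp4, Nrg4, Pnpla2, Thrsp, Pparg, Cox8b, Igf1, Slc2a4, Csn1s1, Csn2, Csn3, Lalba, Mex3d, A430105I19Rik, Igkc, Hp and C2. Each kept its direction.

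Each gene was compared between the 12 high and 12 low tumors with limma on log2(RPKM + 0.5), where RPKM is a read count corrected for the gene's length and the library's size, so that differences of genes with low levels are understated. Of 16732 genes, 201 differed at an adjusted p under 0.05 (1.20%). Higher in the high tumors were 199 genes (1.19%) and lower were 2 (0.012%). At an unadjusted p under 0.05 there were 1401 higher (8.37%) and 273 lower genes (1.63%). Over all genes the median difference was 0.04. In 17 genes (0.102%) every high tumor was above every low tumor, and in 0 genes every high tumor was below every low tumor. With treatment in the fit 76 genes differed, of which 70 were among the 201.

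Of the 58 adipocyte genes that were looked at, Adipoq and 49 others passed the filter of a mean of 0.5 RPKM, and 17 of the 49 were called higher, 0 lower (background 1.19% and 0.012%). Their median difference was 0.62, where that of all genes was 0.04. Since the tumors were ranked by a fat cell gene, these counts and the differences of fat genes between the groups are given as a description. Of the 199 genes called higher 8 had a mean under 0.5 RPKM over the other 38 tumors and passed the filter only through the high tumors, so that they had to differ: of the named genes these are Lep, Nrg4, Plin1, Slc7a10 and Tmem45b.

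Among adipokines, the hormones secreted by fat cells, 4 of 4 tested genes were called higher (background 1.19%, median difference 2.01). Of these, Lep and Nrg4 passed the filter only through the high tumors and had to differ. Cfd, which encodes the complement protease adipsin, was between 9.38 and 142 RPKM (median 24.2) in the high tumors and between 0.054 and 0.726 RPKM (median 0.260) in the low tumors, a difference of 5.33 ± 0.34 (SE) on the log2 scale. Lep, the appetite hormone leptin, was between 0.734 and 8.66 RPKM (median 3.34) against 0.011 to 0.098 RPKM (median 0.049), a difference of 2.65 ± 0.29. In both genes no high tumor overlapped with a low tumor. The brown fat-enriched growth factor Nrg4 differed by 0.85 ± 0.20 and the retinol carrier Rbp4 by 1.36 ± 0.33, and the groups overlapped in both. The Rbp4 call was lost in 12 of 20 settings, with a difference of 0.87 for 16 against 16 tumors (limma, adjusted p = 0.455, the highest of these settings, with 0.0331 the lowest). Retn (resistin) was below the filter, with 0.238 to 4.95 RPKM in the high and 0 to 0.397 RPKM in the low tumors.

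Of 7 tested genes for lipid droplet coat proteins 3 were called higher, and their levels did not overlap between the groups. Cidec, which helps droplets fuse, was between 4.86 and 23.5 RPKM (median 11.4) in the high tumors and between 0.048 and 0.523 RPKM (median 0.225) in the low tumors, a difference of 3.98 ± 0.22. Plin4 was between 3.04 and 16.7 RPKM against 0.045 to 0.271 RPKM, a difference of 3.53 ± 0.22. Plin1, the perilipin that gates lipolysis in adipocytes, was between 0.990 and 11.4 RPKM against 0 to 0.095 RPKM, a difference of 2.97 ± 0.24.
The coat gene Plin2, which many cell types express, had medians of 320 RPKM in the high and 346 RPKM in the low tumors, with overlapping ranges. The members of this list thus fell apart into those that separated the groups and those, such as Plin2, whose levels overlapped.

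**Figure D2:**
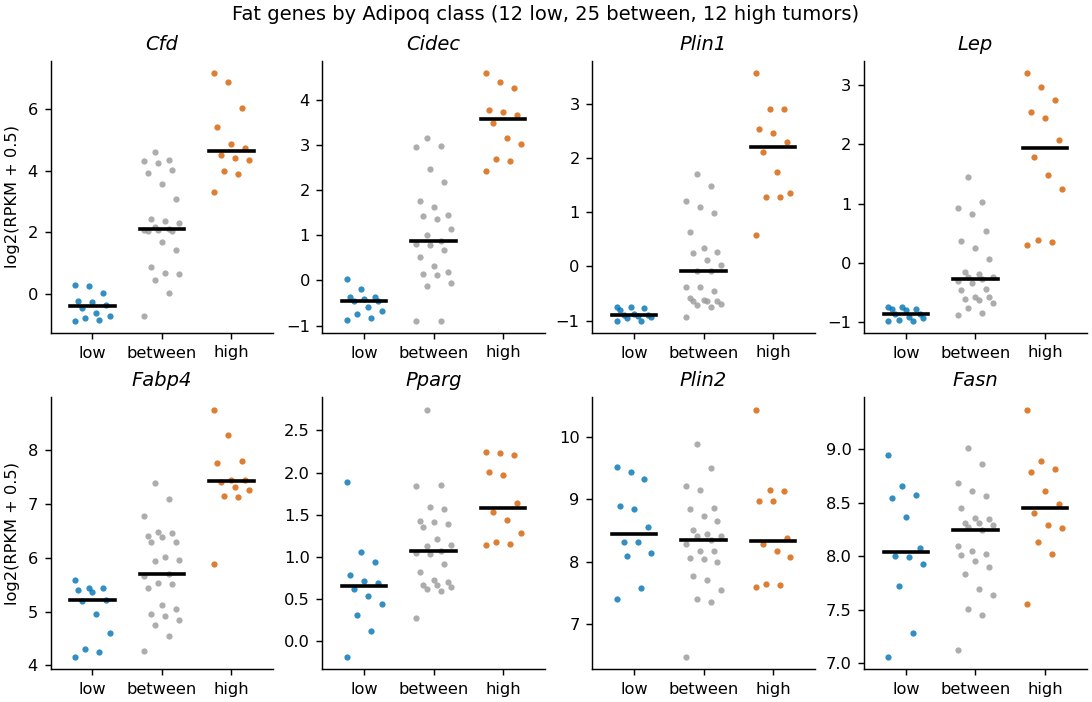
Level of 8 fat genes on log2(RPKM + 0.5) in the 12 low, 25 between and 12 high tumors, with a point for each tumor and a line at the median. Cfd, Cidec, Plin1, Lep and Fabp4 do not overlap between the high and low tumors, whereas Plin2 and Fasn do.

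Of 10 genes for fatty acid uptake and lipolysis 5 were called higher. The fatty acid binding protein gene Fabp4 was between 58.8 and 431 RPKM (median 171) in the high tumors and between 17.4 and 47.8 RPKM (median 36.5) in the low tumors, a difference of 2.47 ± 0.24. Cd36, a fatty acid transporter, was between 6.30 and 31.3 RPKM (median 13.0) against 0.589 to 3.27 RPKM (median 1.77), a difference of 2.62 ± 0.22. Fabp4 was well expressed in the low tumors too, and in neither gene did the groups overlap. The lipases differed less, by 1.85 ± 0.29 in Lpl (lipoprotein lipase), 1.20 ± 0.19 in Lipe (hormone-sensitive lipase) and 0.77 ± 0.16 in Pnpla2 (adipose triglyceride lipase), with overlap in each. Aqp7 and Adrb3, the glycerol channel and the beta-3 adrenergic receptor of fat, were below the filter, and in both genes the 12 high tumors were above the highest low tumor.

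Of 16 fat synthesis genes 3 were called higher and the others did not pass the test. These were Pck1, whose product makes glycerol for triglyceride in fat (3.40 ± 0.28), the glycerol-3-phosphate dehydrogenase gene Gpd1 (2.37 ± 0.35) and Thrsp, a lipogenic regulator (2.05 ± 0.52). The 12 high tumors had 1.29 to 15.6 RPKM of Pck1, and the 12 low tumors had 0.010 to 0.083 RPKM. The Thrsp call was lost in 10 of 19 settings. Its difference was 1.41 with treatment in the fit (limma, adjusted p = 0.430), 1.73 without the tumors with at least 100 RPKM of Acta1 (0.398) and 1.84 without X10_105 (0.0707), and its lowest adjusted p was 7.64e-05. The fatty acid synthase gene Fasn, expressed by tumor cells as well, had medians of 348 RPKM in the high and 262 RPKM in the low tumors, with overlapping ranges and an adjusted p of 0.582 by limma.

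Of 8 adipocyte transcription factor genes, Pparg was called higher, with 1.70 to 4.24 RPKM (median 2.50) in the high and 0.381 to 3.20 RPKM (median 1.08) in the low tumors, a difference of 1.01 ± 0.20. It was not called with treatment in the fit (0.88, limma, adjusted p = 0.0779, from 2.04e-05 to 0.0872 over 19 settings). Cebpa had medians of 19.1 and 12.3 RPKM and Cebpb, a C/EBP factor found in many cells, had medians of 60.2 and 94.5 RPKM, with adjusted p of 0.318 and 0.494 by limma. Of 4 tested brown and beige fat genes Cox8b was called higher, with 0.193 to 33.3 RPKM (median 6.24) against 0 to 4.81 RPKM (median 0.083). Cox8b encodes a respiratory chain subunit of brown fat and of muscle, and its highest level was in glargine_64, the tumor with the highest level of the muscle gene Acta1. In the 6 high tumors with at least 100 RPKM of Acta1 Cox8b was between 4.67 and 33.3 RPKM. It was between 0.193 and 14.2 RPKM in the other 6, with the most in Untreated_189, which had 0.789 RPKM of Acta1. The fitted difference of Cox8b was 2.66. Without the tumors with at least 100 RPKM of Acta1, which left 6 against 11 tumors, it was 1.70 and Cox8b was not called. The adjusted p of this setting was 0.298 by limma, the highest of 19 settings, with 2.29e-05 the lowest.

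Of 12 genes for adipocyte progenitors and fibroblasts only Dpp4, a surface peptidase of early progenitors, was called (background 1.19%). It had 7.44 to 29.7 RPKM (median 11.9) in the high and 1.48 to 9.51 RPKM (median 5.32) in the low tumors (1.36 ± 0.25, limma, adjusted p = 0.00328). Pdgfra, the receptor that marks fibroblasts and progenitors, had medians of 27.8 RPKM in the high and 45.1 RPKM in the low tumors, and Dcn (decorin) 258 and 311 RPKM. Their fitted differences were -0.17 ± 0.40 and 0.25 ± 0.55. Dpp4 was not called without the tumors with at least 100 RPKM of Acta1 (1.05, limma, adjusted p = 0.144) nor with 16 against 16 tumors (1.01, adjusted p = 0.0785). The list had a median difference of 0.73, with 11 of 12 genes positive. At an unadjusted p under 0.05 by limma 5 were higher and 0 lower (background 8.37% and 1.63%).

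The tumors between the groups give a view of the fat genes that took no part in the comparison. In these 25 tumors each gene was fitted on log2(Adipoq RPKM + 0.5) with limma, and 15 genes (0.0896%) had a slope at an adjusted p under 0.05, all of them upwards. At an unadjusted p under 0.05 there were 832 genes. All 15 were also called higher in the comparison of high and low tumors, and 8 of them are in the adipocyte lists (Cfd, Lep, Cidec, Plin4, Plin1, Cd36, Gpd1 and Pck1). The others were Car3, Ces1d, Apoc1, Tusc5, Adig, Sncg and Tmem45b.

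The slope, given as log2 units per log2 unit of Adipoq with its SE and the adjusted p of limma, was 1.20 ± 0.09 in Cfd (adjusted p = 7.96e-10), 0.90 ± 0.08 in Cidec (2.19e-08), 0.76 ± 0.06 in Plin4 (2.26e-09) and 0.60 ± 0.06 in Plin1 (2.62e-06). In Lep it was 0.42 ± 0.08 (0.00844). Other genes called in the high tumors did not pass in the tumors between, where the slope was 0.38 ± 0.12 in Fabp4 (0.921), 0.29 ± 0.16 in Lpl (0.921), 0.18 ± 0.09 in Pparg (0.921) and -0.02 ± 0.13 in Dpp4 (0.999). Of the 199 genes higher in the high tumors 163 (81.9%) had a positive slope in the tumors between, compared with 47.5% of all tested genes.

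Over the 49 tumors, which share tissue and sequencing platform, the genes with the highest Pearson correlation with Adipoq on log2(RPKM + 0.5) were Plin4 (0.98), Cidec (0.98), Plin1 (0.96), Cfd (0.96), Pck1 (0.95), Tusc5 (0.93), Ces1d (0.91), Sncg (0.90), Car3 (0.90) and Adig (0.90). The lowest were those of Nab2 (-0.56), Mif (-0.52), Hk1 (-0.52), Fcrlb (-0.51) and Sez6l2 (-0.51). These correlations are given as a description.

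Fat genes did not keep the same proportion in every fat-containing tumor. Adipoq itself varied 5.21-fold over the 12 high tumors. The ratio of Cidec to Adipoq was between 0.362 and 0.857 (2.37-fold), that of Pparg varied 2.45-fold, that of Plin4 3.02-fold and that of Plin1 3.15-fold. The ratio varied 9.21-fold for Cfd (5.92-fold without Untreated_195) and 28.9-fold for Thrsp (11.3-fold without glargine_47). For Lep it varied 36.8-fold, but 8.58-fold without X10_105, and for Retn 21.3-fold, but 8.98-fold without glargine_67. That of Slc2a4, which muscle also expresses, varied 29.9-fold (19.7-fold without glargine_64) and was highest in glargine_64, the high tumor with the most Acta1 (1940 RPKM). Slc2a4 was between 4.18 and 34.6 RPKM in the 6 high tumors with at least 100 RPKM of Acta1 and between 1.55 and 5.05 RPKM in the other 6. Leptin relative to adiponectin was highest in glargine_78, with 8.66 RPKM of Lep and 16.0 RPKM of Adipoq, and lowest in X10_105, with 0.734 and 49.9 RPKM. Retn relative to Adipoq was lowest in glargine_67, with 0.238 RPKM of Retn, and highest in glargine_70, with 4.95 RPKM. Within the 12 high tumors the correlation with Adipoq on log2(RPKM + 0.5) was 0.90 for Plin1 and 0.15 for Lep, and without X10_105 it was 0.92 and 0.51. These describe tumors that Adipoq had selected.

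**Figure D3:**
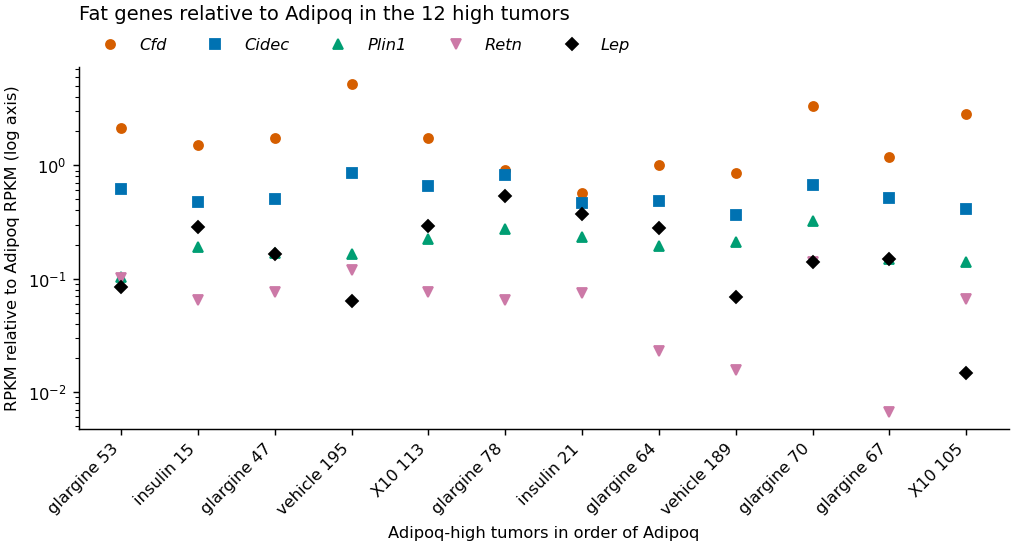
Level of 5 fat genes divided by the Adipoq level of the same tumor (RPKM over RPKM, log axis) in the 12 high tumors, in order of Adipoq, with a point for each gene and tumor (vehicle tumors are those named Untreated). Cidec spans 2.37-fold and Plin1 3.15-fold. Lep spans 36.8-fold (8.58-fold without X10_105) and Retn 21.3-fold (8.98-fold without glargine_67).

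Outside the lists the 12 genes with the smallest adjusted p that were higher in the high tumors were Sncg, Car3, Tusc5, Adig, Slc7a10, Cyp4b1, Mrap, Ces1d, Apoc1, Ptger3, Tmem45b and Apol6. Car3, a carbonic anhydrase abundant in fat and slow muscle, was between 32.0 and 322 RPKM (median 80.5) in the high tumors and between 0.060 and 25.0 RPKM (median 0.571) in the low tumors, a difference of 5.69 ± 0.59 (limma, adjusted p = 9.88e-07) and the highest of all genes tested. Sncg (gamma-synuclein) was between 6.21 and 55.7 RPKM (median 11.1) against 0.446 to 3.15 RPKM (median 1.12; 3.10 ± 0.31, limma, adjusted p = 4.12e-07). In both genes the high and low tumors did not overlap.
Several of the other genes are known from adipocytes. Tusc5 takes part in the traffic of the glucose transporter GLUT4 (1.92 ± 0.20, limma, adjusted p = 9.92e-07), Adig is adipogenin (2.42 ± 0.26), Slc7a10 is an amino acid transporter of white fat (1.71 ± 0.18) and Mrap is the accessory protein of melanocortin receptors (2.16 ± 0.24). Ces1d, a carboxylesterase of fat that belongs to a cluster of closely related genes between which reads could be split, differed by 3.05 ± 0.36, and Ptger3, the receptor EP3 for prostaglandin E2, by 1.47 ± 0.19. Slc7a10 and Tmem45b passed the filter only through the high tumors. Each of the 12 genes was above the mean of the low tumors in 12 of 12 high tumors, and all 12 were called with treatment in the fit. Since these genes were chosen by their adjusted p in the same tumors, both are given as a description.

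**Figure D4:**
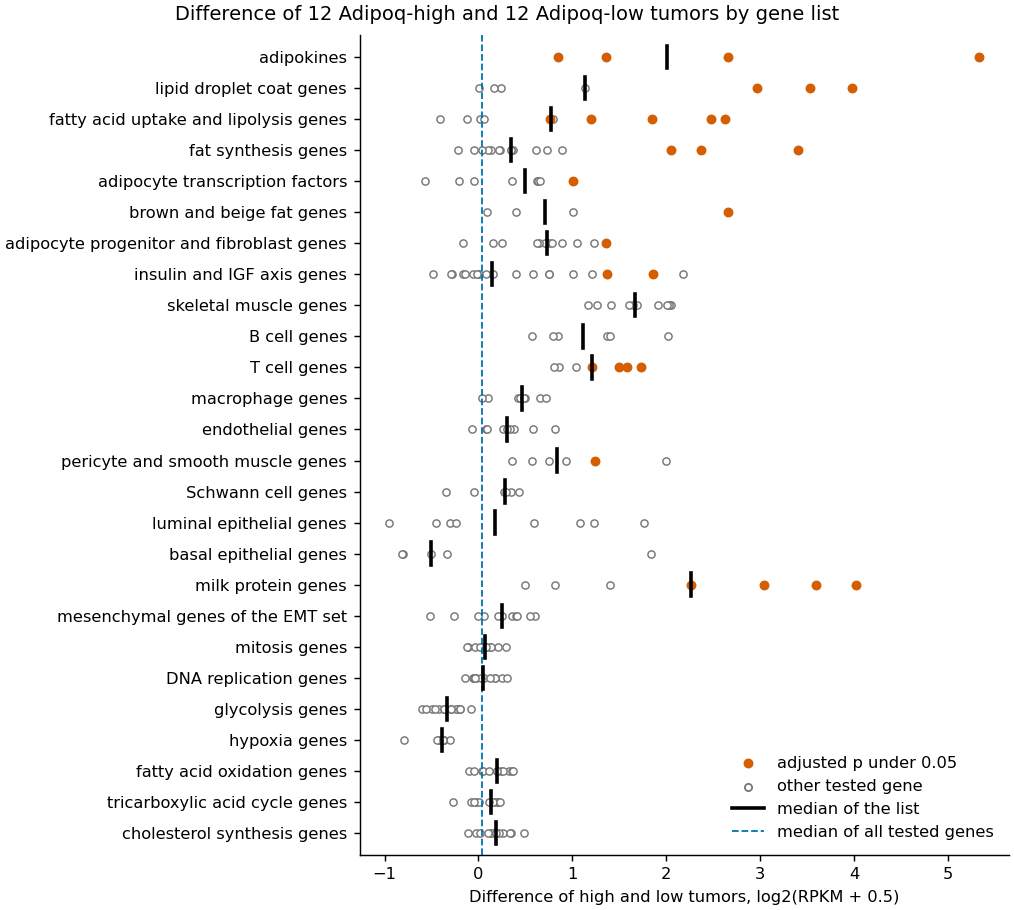
Difference of the 12 high and 12 low tumors on log2(RPKM + 0.5) for the tested genes of 26 lists (a point per gene, filled where the adjusted p of limma was under 0.05), with a bar at the median of each list and a dashed line at the median of all genes, 0.04. Filled points lie in the fat, T cell, milk protein, insulin and IGF axis, progenitor and smooth muscle lists, and no filled point is below 0.

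The insulin and IGF axis was examined because the treatments act through it. Of 21 tested genes 2 were called higher and 0 lower (background 1.19% and 0.012%), with a median difference of 0.15. Igf1, made by stromal and fat cells, was between 26.9 and 164 RPKM (median 67.4) in the high tumors and between 6.58 and 67.2 RPKM (median 29.8) in the low tumors (1.37 ± 0.34, limma, adjusted p = 0.0408). In 10 of the 12 high tumors the level was above the mean of the low tumors. Igf1 was not called without X10_105 (1.36, adjusted p = 0.0568) nor with treatment in the fit (0.91, adjusted p = 0.432), both by limma, and its lowest adjusted p over 20 settings was 0.00149.
Slc2a4 encodes GLUT4, the glucose transporter of fat and muscle that responds to insulin. It was between 1.55 and 34.6 RPKM (median 4.61) in the high tumors and between 0.184 and 3.18 RPKM (median 0.993) in the low tumors (1.86 ± 0.41, limma, adjusted p = 0.0157). Its highest level was in glargine_64, which also held the most Acta1, and without the tumors with at least 100 RPKM of Acta1 its difference was 0.97 (adjusted p = 0.229 by limma, from 6.23e-05 to 0.249 over 19 settings).

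The receptor genes did not pass the test. Igf1r had 3.24 to 7.60 RPKM (median 5.54) in the high and 3.74 to 14.4 RPKM (median 7.02) in the low tumors (-0.48 ± 0.20, limma, adjusted p = 0.376). The groups overlapped, though 12 of 12 high tumors were below the mean of the low tumors, a count that was not compared with other genes. Insr had medians of 8.64 and 8.44 RPKM (adjusted p = 0.965 by limma). Igf2 ranged from 1.85 to 3475 RPKM in the high tumors and from 0.355 to 541 RPKM in the low tumors (2.18 ± 1.21, limma, adjusted p = 0.591). It was at 100 RPKM or more in 5 of 12 high, 8 of 25 middle and 1 of 12 low tumors.

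Genes of other tissues were measured beside those of fat. Fast skeletal muscle genes had a median difference of 1.66, with 10 of 10 positive and 0 called. The median was -1.04 without the tumors with at least 100 RPKM of Acta1, a setting that leaves out tumors by a gene of this list, and -0.07 with the score of these genes as a covariate. Acta1 (skeletal actin) was between 0.475 and 1940 RPKM (median 139) in the high tumors and between 0.830 and 507 RPKM (median 4.52) in the low tumors. It was at 100 RPKM or more in 6 of 12 high, 5 of 25 middle and 1 of 12 low tumors. The summed level of the 10 genes was between 5.2 and 5611 RPKM in the high and between 6.2 and 2109 RPKM in the low tumors, and in the 6 high tumors without much muscle Acta1 was at most 3.42 RPKM. With the skeletal muscle score as a covariate 127 genes were called higher, where 199 were called without it. Without the tumors with at least 100 RPKM of Acta1 48 genes differed between 6 high and 11 low tumors.

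Milk protein genes, products of the lactating epithelium, were among those called higher, with 4 of 7 called (background 1.19%) and a median difference of 2.27. Csn2 (beta-casein) was between 2.90 and 316 RPKM (median 8.63) in the high and between 0 and 36.6 RPKM (median 0.063) in the low tumors (3.59 ± 0.77, limma, adjusted p = 0.0144). Csn1s1 (alpha-S1-casein) differed by 4.03 ± 0.73 (adjusted p = 0.00294), Csn3 by 3.05 ± 0.66 (0.0153) and Lalba, the alpha-lactalbumin gene, by 2.27 ± 0.44 (0.00620), each by limma. The summed level of the list was between 11.8 and 800 RPKM (median 57.3) in the high and between 1.22 and 105.2 RPKM (median 6.81) in the low tumors. The groups overlapped in each gene, and a level of at least 1 RPKM of Csn2 was found in 12 of 12 high, 15 of 25 middle and 4 of 12 low tumors.
The number of milk protein genes called depended on the setting. With treatment in the fit 0 of 7 were called (Csn1s1 had the smallest adjusted p of the 4 by limma, 0.0659, from 0.000129 to 0.271 over 20 settings, and a difference of 2.84). The differences in that fit were 2.14 in Csn2, 1.97 in Csn3 and 1.71 in Lalba. Without the tumors with at least 100 RPKM of Acta1 (6 against 11 tumors) 1 of 7 was called, Lalba. There the differences were 2.45 in Csn1s1, 2.09 in Csn2, 1.77 in Csn3 and 1.59 in Lalba. In the 25 tumors between, the slope of Csn2 on Adipoq was 0.55 ± 0.35 (adjusted p = 0.921 by limma). The milk protein gene Wap had medians of 0.136 RPKM in the high and 0.108 RPKM in the low tumors.

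Genes of epithelial cells showed no call. None of 8 luminal and 5 basal genes was called by limma (2 and 1 at an unadjusted p under 0.05), and the epithelial adhesion gene Epcam had medians of 12.2 RPKM in the high and 3.85 RPKM in the low tumors. The summed levels went the other way. Their medians were 284 RPKM in the high and 538 RPKM in the low tumors for the luminal list, and 15.6 and 35.5 RPKM for the basal list. Of the luminal genes 4 were positive and 4 negative, with a median of 0.18 that changed sign between settings (-0.45 with 8 against 8 tumors, -0.05 without X10_105 and 0.69 with ranking by 5 other adipocyte genes). Of the basal genes 1 was positive and 4 negative, with a median of -0.50 (-1.20 without X10_105, and 0.14 with Adipoq as a continuous term over the 49 tumors). Of 11 mesenchymal genes that the study had used for its EMT set 0 were called (2 at an unadjusted p under 0.05). This list was chosen on these samples and is not independent evidence. Vim (vimentin) had medians of 3642 and 3703 RPKM.

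T cell genes were among those called higher, with 4 of 7 called (background 1.19%) and 7 of 7 at an unadjusted p under 0.05. Cd3e, a chain of the T cell receptor complex, was between 0.599 and 19.1 RPKM (median 3.30) in the high tumors and between 0.160 and 3.07 RPKM (median 0.871) in the low tumors (1.50 ± 0.33, limma, adjusted p = 0.0153). Cd3g differed by 1.73 ± 0.40 (adjusted p = 0.0223), Cd3d by 1.21 ± 0.28 (0.0260) and Lck, the kinase of T cell receptor signaling, by 1.58 ± 0.34 (0.0131), each by limma. The level of each was above the mean of the low tumors in 11 of 12 high tumors.
The summed level of the 7 genes was between 15.4 and 231 RPKM (median 52.6) in the high and between 3.56 and 48.6 RPKM (median 22.4) in the low tumors. With treatment in the fit the count of calls was 4 of 7, and it was also 4 of 7 without X10_105. Without the tumors with at least 100 RPKM of Acta1 it was 0 of 7, with differences of 1.40 in Cd3g, 1.26 in Lck, 1.12 in Cd3e and 0.84 in Cd3d. With 16 tumors against 16 it was also 0 of 7, with differences of 1.15, 1.06, 0.98 and 0.74 in the same order. The slope of Cd3e on Adipoq in the tumors between was 0.02 ± 0.19 (adjusted p = 0.999 by limma), where insulin_8, with 24.5 RPKM of Cd3e, had 0.459 RPKM of Adipoq.

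Foxp3, Ctla4, Icos and Il2ra were chosen after their values were seen, so their number carries no weight. Foxp3, the defining transcription factor of regulatory T cells, was between 0.315 and 2.85 RPKM (median 1.31) in the high tumors and between 0.005 and 0.636 RPKM (median 0.294) in the low tumors (1.28 ± 0.19, limma, adjusted p = 0.000211). The checkpoint receptor gene Ctla4 was between 0.724 and 8.86 RPKM against 0.130 to 1.29 RPKM (1.71 ± 0.25, limma, adjusted p = 0.000254). Icos, a costimulatory receptor, differed by 1.34 ± 0.21 and Il2ra, the interleukin 2 receptor alpha chain, by 1.27 ± 0.21. In each of them 11 of 12 high tumors were above the highest low tumor. All were called with treatment in the fit. Il2ra was not called without the tumors with at least 100 RPKM of Acta1 (1.22, limma, adjusted p = 0.107), and Ctla4 and Icos were not called with 16 against 16 tumors (1.18 and 0.96, limma, adjusted p = 0.0688 and 0.145). Foxp3 was also called with treatment in the fit (1.39) and without the tumors with at least 100 RPKM of Acta1 (1.24), but not with 16 against 16 tumors. There its difference was 0.87 (limma, adjusted p = 0.0995, where the lowest over 19 settings was 0.000140). In the tumors between, however, the slope of Foxp3 was -0.01 ± 0.12 and that of Ctla4 -0.02 ± 0.17 (adjusted p = 0.999 by limma in both).

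**Figure D5:**
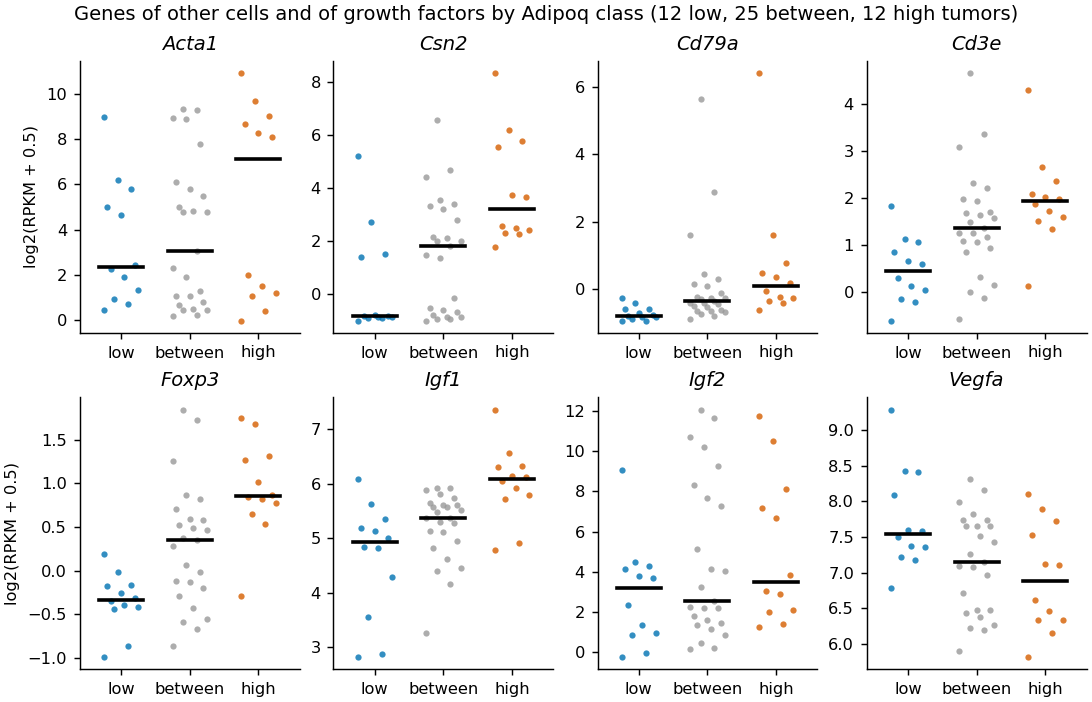
Level of 8 genes outside the fat program on log2(RPKM + 0.5) in the 12 low, 25 between and 12 high tumors, with a point for each tumor and a line at the median. Foxp3 and Cd3e are higher in the high than in the low tumors, and the levels of Acta1 and Igf2 range widely within each class, with at least 100 RPKM of Acta1 in 6 high, 5 middle and 1 low tumors.

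B cell genes were highest in X10_105. Of 6 tested genes 0 were called (3 at an unadjusted p under 0.05, limma), and without X10_105, a setting chosen after seeing the data, 2 were called, Cd79a and Cd79b, with a median difference of 0.63 in place of 1.11 for the list. Cd79a was between 0.144 and 84.5 RPKM (median 0.552) in the high tumors and between 0.021 and 0.336 RPKM (median 0.076) in the low tumors. Macrophage genes showed no call, with 0 of 8 called (0 at an unadjusted p under 0.05, limma) and medians of Adgre1 (F4/80) of 17.3 and 15.7 RPKM.

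Vessel genes were mostly not called. Of 9 endothelial genes 0 were called (3 at an unadjusted p under 0.05, limma), with 8 positive and 1 negative and a median difference of 0.31. Cdh5, the cadherin of endothelial junctions, had medians of 29.1 and 30.6 RPKM and a fitted difference of 0.08 ± 0.14. Of 6 genes of pericytes and smooth muscle 1 was called (background 1.19%), and 3 were higher at an unadjusted p under 0.05 (background 8.37%), both by limma. The called gene was Myh11, the myosin of contractile smooth muscle. It had 1.18 to 5.52 RPKM (median 2.03) in the high and 0.207 to 1.25 RPKM (median 0.520) in the low tumors (1.24 ± 0.19, limma, adjusted p = 0.000284). Selp and Cd300lg, chosen after their values were seen, are genes of venules and capillaries. Selp (P-selectin) had medians of 9.50 and 1.69 RPKM (2.26 ± 0.32, limma, adjusted p = 0.000144) and Cd300lg medians of 5.99 and 2.43 RPKM (1.04 ± 0.15, adjusted p = 0.000202). Schwann cell genes had 0 of 6 called (0 at an unadjusted p under 0.05, limma).

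Genes of cell division and of energy metabolism did not pass the test. Of 12 mitosis and 12 DNA replication genes 0 were called (0 and 1 at an unadjusted p under 0.05, limma), with median differences of 0.07 and 0.04, and Mki67, the proliferation marker, had medians of 19.0 RPKM in the high and 14.4 RPKM in the low tumors. Of 12 genes of fatty acid oxidation, 12 of the tricarboxylic acid cycle and 14 of cholesterol synthesis 0 were called (4, 0 and 0 at an unadjusted p under 0.05), with medians of 0.20, 0.13 and 0.18.
Glycolysis and hypoxia genes lay on the lower side without passing the test. All 14 glycolysis genes had a negative difference (median -0.33, 0 called, 2 at an unadjusted p under 0.05) and so had all 8 hypoxia genes (median -0.39, 0 called, 1 at an unadjusted p under 0.05), with limma for both. Hk1, the hexokinase found in most tissues, was between 114 and 196 RPKM (median 150) in the high and between 140 and 344 RPKM (median 212) in the low tumors (-0.42 ± 0.14, limma, adjusted p = 0.177). Vegfa was between 56.2 and 274 RPKM (median 117) against 110 to 623 RPKM (median 185; -0.80 ± 0.28, limma, adjusted p = 0.229). The genes of each list were measured in the same tumors, so their number is not a number of independent observations. With Adipoq as a continuous term over the 49 tumors both Vegfa and Hk1 passed the threshold, with adjusted p of 0.0363 and 0.0154 by limma, the lowest of 20 settings, where the highest were 0.637 and 0.393.

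Only Mex3d and A430105I19Rik were called lower. Mex3d, an RNA-binding protein gene on chromosome 10, was between 7.03 and 13.9 RPKM (median 8.76) in the high tumors and between 9.81 and 20.2 RPKM (median 13.6) in the low tumors (-0.54 ± 0.13, limma, adjusted p = 0.0367), and was below the mean of the low tumors in 12 of 12 high tumors. The predicted gene A430105I19Rik, named after its values were seen, had medians of 7.72 and 12.1 RPKM (-0.66 ± 0.17, limma, adjusted p = 0.0488). Without X10_105 the differences were -0.52 in Mex3d and -0.65 in A430105I19Rik, with adjusted p of 0.0604 (0.0191 to 0.261 over 20 settings) and 0.0707 (0.0314 to 0.174) by limma. With treatment in the fit they were -0.59 and -0.79, with adjusted p of 0.116 and 0.0861 by limma.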

How the data were processed

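RNA of 50 MG tumors was Poly-A selected and sequenced on the Ion Proton. Per the submitters' processing notes, alignment used Tophat2 and Bowtie2 on GRCm38 and gene counting used HTSeq (0.6.1). The authors deposited RPKM values for 37701 genes, normalized to library size and gene length. The values are not log-transformed. The values of a gene are multiples of a step, which stands for 1 read after scaling to 100 M reads per library and rounding. These steps gave back the library sizes, and the reads of 16433 of the 16733 tested genes (98.2%). At least 97.4% of low values per tumor came out whole.

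Genes with a mean of at least 0.5 RPKM over the 50 tumors were taken as log2(RPKM + 0.5) and tested by limma (version 3.58.1, run under R 4.3.3), with an intensity trend and Benjamini-Hochberg adjustment, threshold 0.05. Adipoq was left out of the counts. Both steps were tested on simulated data. Permutation tests used 100000 resamples (Python 3.11.15, scipy 1.17.1). Each tumor has its own number and was taken as a separate animal, which the sample titles do not state. The sample titles give no batch.

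The members and the 26 gene lists (261 genes, of which 250 were tested) were chosen with earlier results of these data known. Named are Adipoq, at most 6 members of each list, the 12 genes outside the lists with the smallest adjusted p in each direction (predicted genes left out), and the 10 highest and 5 lowest correlations with Adipoq; others are said to be chosen after their values were seen. Coordinates are from GENCODE M21 (GRCm38). Alternatives were other pseudocounts, filters, scalings, group sizes, rankings and covariates. Added after seeing the data were leaving out X10_105 or the tumors with at least 100 RPKM of Acta1, limma voom on the recovered reads, ratios to Adipoq without X10_105 or the tumor at either end, and the log2 scale for outlying tumors. The authors' DESeq2 analysis was not repeated.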

Additional observations from a re-analysis of the deposited data

Results flagged for a closer look

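Adipoq of Untreated_189, at 33.4 RPKM, lay far from the other 9 vehicle tumors, of which the next had 12.4 RPKM (a gap of 0.629 of the range, above Dixon's 95% critical value for 10 tumors). Adipoq of X10_105, at 49.9 RPKM, lay far from the other X10 tumors, of which the next had 12.8 RPKM (0.745 of the range). On log2(RPKM + 0.5) the gaps were 0.235 and 0.302 of the range, below that value. Both ends of 5 groups were examined, and chance marks about 1 in 20 groups. Both are among the 12 high tumors.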

How the results depend on the processing

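Between high and low tumors 199 genes were higher and 2 lower. There were 56 higher among genes with a mean of at least 5 RPKM, where fewer genes were tested, 121 with quantile normalization, 73 with treatment as a covariate, 127 with a skeletal muscle score as a covariate, 69 with 8 against 8 and 108 with 16 against 16 tumors, 49 with the 2 highest against the 2 lowest tumors of each treatment, 75 with ranking by Plin1, and 47 without the tumors with at least 100 RPKM of Acta1 (6 against 11 tumors), a setting chosen after seeing the data. Apart from the fewer genes or tumors of some settings the cause was not tested. In the other 11 settings 156 to 237 were higher. The lower genes were 15 with Adipoq as a continuous term over the 49 tumors, 14 when treatment was added to it, 4 with quantile normalization, 0 with a mean of at least 5 RPKM or without X10_105, and 1 to 3 in the remaining settings. The slope in the tumors between gave 11 to 16 genes. Of the 53 called genes whose values are given, 24 kept the call in every setting, 29 lost it in at least 1, and 0 changed direction. Those with the highest adjusted p across settings were Cd3d (up to 0.594 by limma, 16 against 16 tumors) and Csn3 (up to 0.543 by limma, without the tumors with at least 100 RPKM of Acta1). Of 520 list medians recomputed, 11 moved by more than the spread between tumors, in the adipokine, droplet coat and transcription factor lists. The median of the muscle list was -1.04 without the tumors with at least 100 RPKM of Acta1 (-0.07 with the muscle score as a covariate), that of the luminal list -0.45 with 8 against 8 tumors, and that of the transcription factor list -0.05 among genes with a mean of at least 5 RPKM. The tests of treatments, of Adipoq by treatment and of library size stayed on the same side of 0.05 in each setting, with a p of 0.0613 for treatments with 16 against 16 tumors as the lowest. No paired analysis was possible because no tumor number is shared between treatments. Depth limits the low tumors, where Adipoq rests on 2 to 14 reads.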

Other observations

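Ucp1, the uncoupling protein that defines brown and beige fat, was at 1 RPKM or more in 2 of 12 high tumors (Untreated_189 with 5.26 RPKM and X10_105 with 1.88 RPKM), in 1 of 25 middle tumors (Untreated_162 with 2.19 RPKM) and in 0 of 12 low tumors, where it was at most 0.079 RPKM. The same 3 tumors had the most Cidea, a gene of brown fat, with 7.44, 6.99 and 3.11 RPKM.

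Hp, C4b, C2 and Igkc were chosen after their values were seen. Hp (haptoglobin, an acute phase protein) was between 61.7 and 437 RPKM (median 151) in the high and between 2.35 and 267 RPKM (median 13.0) in the low tumors (3.16 ± 0.60, limma, adjusted p = 0.00488; 2.65 and adjusted p = 0.0849 with treatment in the fit; 3.07 and 0.119 without the tumors with at least 100 RPKM of Acta1), and it was above the mean of the low tumors in 12 of 12 high tumors. The complement gene C4b had medians of 208 and 41.7 RPKM (2.27 ± 0.39, limma, adjusted p = 0.00192; 2.20 and 0.0281 with treatment in the fit) and C2 medians of 11.2 and 4.05 RPKM (1.72 ± 0.31, limma, adjusted p = 0.00255; 1.55 and 0.0541 with treatment in the fit), where reads of C4b and its near-identical copy C4a could be split between them. Neither was called without the tumors with at least 100 RPKM of Acta1 (1.64 and 1.38, limma, adjusted p = 0.232 and 0.161). Immunoglobulin genes were called higher in 7 of 169 tested, where 1.19% of all genes were, with Igkc at 11.4 to 37120 RPKM in the high and 0.65 to 82.9 RPKM in the low tumors (3.80 ± 0.91, adjusted p = 0.0313 by limma), the highest level being that of X10_105. Without X10_105 the difference of Igkc was 3.13 (limma, adjusted p = 0.0164). It was not called with treatment in the fit (4.02, adjusted p = 0.0898) nor without the tumors with at least 100 RPKM of Acta1 (2.48, adjusted p = 0.298), both by limma.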
